A study of Homo sapiens with 6 samples.

Results

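Airway mucins are heavily O-glycosylated proteins that coat and protect the bronchial epithelium. The secreted, gel-forming mucins *MUC5AC* and *MUC5B* are made by goblet, club and gland cells and build the mucus that is cleared by cilia, and their overproduction is a feature of asthma. The membrane-bound mucins *MUC1*, *MUC4*, *MUC15*, *MUC16* and *MUC20* stay tethered to the apical surface, where they act as a barrier and as partners of growth factor receptors. These 7 genes were chosen by name from the 61228 rows of the deposited tables, and all 7 rows were present.

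HBE cells, an immortalized human bronchial epithelial line of WT genotype, were treated for 24 h with cockroach extract (CRE) alone or with VAF347 in addition. VAF347 activates the aryl hydrocarbon receptor (AhR), and by the paper's culture methods it was given before CRE. Each condition was sequenced in 3 libraries. The CRE + VAF347 group was compared with the CRE group, so both groups had received the allergen and no untreated cells were analysed here. The labels do not say whether the libraries of a group came from separate cultures, so p-values measure the spread between these libraries, which may be technical. Each library is a bulk poly(A) library of 1 cell line, in which fewer cells of a type and less RNA per cell cannot be told apart.

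The libraries held 8873160 to 10750283 estimated fragments (counts), so that 1 count equalled 0.0935 to 0.112 CPM (counts scaled to 1000000 per library). A gene was called changed when edgeR's quasi-likelihood test on counts gave it an adjusted p under 0.05 together with a log2 fold change beyond 0.5 in either direction, and 340 of 15373 genes tested (2.21%) were called, 77 higher (0.501%) and 263 lower (1.71%) with VAF347. The median log2 fold change of all genes tested was 0.01. The agonist's target genes were higher in every CRE + VAF347 library. *CYP1A1*, a cytochrome P450 induced by AhR, had 5 to 8 counts with CRE and 412 to 460 with VAF347. *CYP1B1*, another AhR-induced cytochrome P450, went from 69.7 ± 4.4 to 613.7 ± 44.4 CPM (SD, n = 3). CRE replicate 3 stood apart from CRE replicates 1 and 2, its chi-square averaging 9.21 and 8.95 per gene against 1.77 to 2.55 for the other replicate pairs. Without it 380 genes were called, 110 of them higher, and for the mucins and the called genes of the mucin-related lists the values without it are given too.

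The 7 genes fell into 2 sets by level. *MUC1*, *MUC4*, *MUC16* and *MUC20* were expressed, with at least 183 counts in every library. *MUC5AC*, *MUC5B* and *MUC15* were at or near 0, did not pass the filter on low counts and were not tested. The gel-forming mucins of airway mucus were thus under detection in both groups.

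*MUC5AC*, the gel-forming mucin of surface goblet cells, on chromosome 11 of GRCh38 from 1157953 to 1201138, had 0 counts in each of the 6 libraries. Among 59135422 counts in all, a count of 0 allows a level of up to 0.0507 CPM (3 counts over the 6 libraries), or 0.0624 CPM as the upper end of an exact Poisson 95% interval. *MUC5B*, the gel-forming mucin of glands and small airways, on chromosome 11 from 1223066 to 1262172, had 2 counts in CRE replicate 1 and 0 in the other 5 libraries. Over all libraries this is 0.0338 CPM, with an exact Poisson 95% interval of 0.0041 to 0.122. *MUC15*, a small membrane-bound mucin, on chromosome 11 from 26559032 to 26572263, had 0, 5 and 1 counts with CRE and 1, 0 and 0 with VAF347. The 6 against 1 counts gave a ratio of 0.182 for VAF347 over CRE, with an exact 95% interval of 0.00396 to 1.5, so a difference was not detectable at this depth. Intervals and floors cover counting error only.

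The upstream sequences of the expressed genes show what the promoters carry near their starts. RefSeq (GRCh38.p14) gave promoters for 3 of the 7 genes: *MUC1*, *MUC4* and *MUC16*. They were searched on both strands for GCGTG, the core of the AhR binding sequence, and for no other motif. The sequences are the 250 bases before the RefSeq start, 5′ to 3′ on the gene's strand, with the core in capitals. RefSeq starts differ from the GENCODE positions given for the genes below. The *MUC4* window overlaps in part the gene as GENCODE places it, up to 195811973.
MUC4, chr3:195811930-195812179, minus strand: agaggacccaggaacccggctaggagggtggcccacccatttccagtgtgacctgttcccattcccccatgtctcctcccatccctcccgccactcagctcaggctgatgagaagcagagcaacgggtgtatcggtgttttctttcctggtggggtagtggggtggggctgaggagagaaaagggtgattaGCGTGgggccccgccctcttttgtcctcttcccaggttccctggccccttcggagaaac
MUC1, chr1:155192916-155193165, minus strand: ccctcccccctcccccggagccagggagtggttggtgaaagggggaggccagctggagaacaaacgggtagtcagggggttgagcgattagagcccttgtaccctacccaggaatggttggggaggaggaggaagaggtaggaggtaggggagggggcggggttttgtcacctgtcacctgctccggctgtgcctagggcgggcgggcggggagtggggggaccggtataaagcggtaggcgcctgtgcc
MUC16, chr19:9010410-9010659, minus strand: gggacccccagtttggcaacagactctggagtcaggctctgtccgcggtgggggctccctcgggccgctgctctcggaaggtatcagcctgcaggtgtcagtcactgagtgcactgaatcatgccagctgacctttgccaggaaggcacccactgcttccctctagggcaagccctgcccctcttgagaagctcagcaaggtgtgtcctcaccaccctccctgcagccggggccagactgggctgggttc
The *MUC4* window held 1 copy of the core, which begins 59 bases before the RefSeq start. The windows of *MUC1* and *MUC16* held 0 copies, as did those of a second RefSeq start of each. Of the 35116 promoters in the table, 32.2% hold at least 1 copy in their 250 bases, so a copy is common, and neither its presence nor its absence says whether AhR binds there.

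*MUC4* was the most abundant of the 7 by counts and the only expressed one with higher values under VAF347. Its product is a large transmembrane mucin that associates with the receptor ERBB2, and the gene lies on the minus strand of chromosome 3 from 195746765 to 195811973. *MUC4* had 1060, 1374 and 1476 counts with CRE and 1473, 1688 and 1833 with VAF347, in the order of the replicate numbers used throughout. Normalized for depth, these were 109.7, 134.8 and 138.0 CPM against 165.5, 177.5 and 182.9 CPM. Every VAF347 library lay above every CRE library. The log2 fold change was 0.46 ± 0.09 (standard error), with an edgeR adjusted p of 0.0101, which is under the fold threshold of 0.5, so *MUC4* was not called on counts.

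The deposited TPM values, which divide counts by transcript length, gave *MUC4* a larger difference. It had 27.1, 31.8 and 36.9 TPM with CRE and 56.3, 54.9 and 59.7 TPM with VAF347, a ratio of means of 1.78 against 1.37 on CPM. On log2(TPM + 1), limma gave a log2 difference of 0.83 with an adjusted p of 0.0233, past both thresholds. With offsets for the transcript lengths recovered from counts and TPM, edgeR gave 0.88 with an adjusted p of 0.00122. When genes of low TPM were kept in the limma fit, the log2 difference was the same and the adjusted p was 0.111, over the threshold. The *MUC4* call thus differed between fits, with and without a correction for length.

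The ratio of counts to TPM gives the mean effective length that Salmon used for a gene in each library, weighted by its estimate of each transcript. For *MUC4* this length was 6672, 6997 and 7071 nucleotides with CRE and 4924, 5439 and 5232 with VAF347. The groups did not overlap, and the log2 ratio of lengths was -0.41. The share of all genes with non-overlapping lengths was not computed. Among 7059 genes tested with a log2 CPM over 5, 10 (0.142%) had a larger change of this length in either direction, and among all 15301 genes with lengths, low ones included, 361 did (2.36%). GENCODE v44 lists 22 transcripts of *MUC4*, 4 of them protein-coding. The protein-coding forms with the 12708 bp exon at chromosome 3, 195778790 to 195791497, are 16273 and 16756 nucleotides long, and those without it are 3829 and 3982. Estimates per transcript were not analysed here, so the transcripts behind the shorter mean were not identified, and the length was noticed after the values were seen. The other expressed mucins had overlapping lengths, with log2 ratios of -0.03 for *MUC1*, 0.09 for *MUC16* and -0.05 for *MUC20*.

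**Figure D1:**
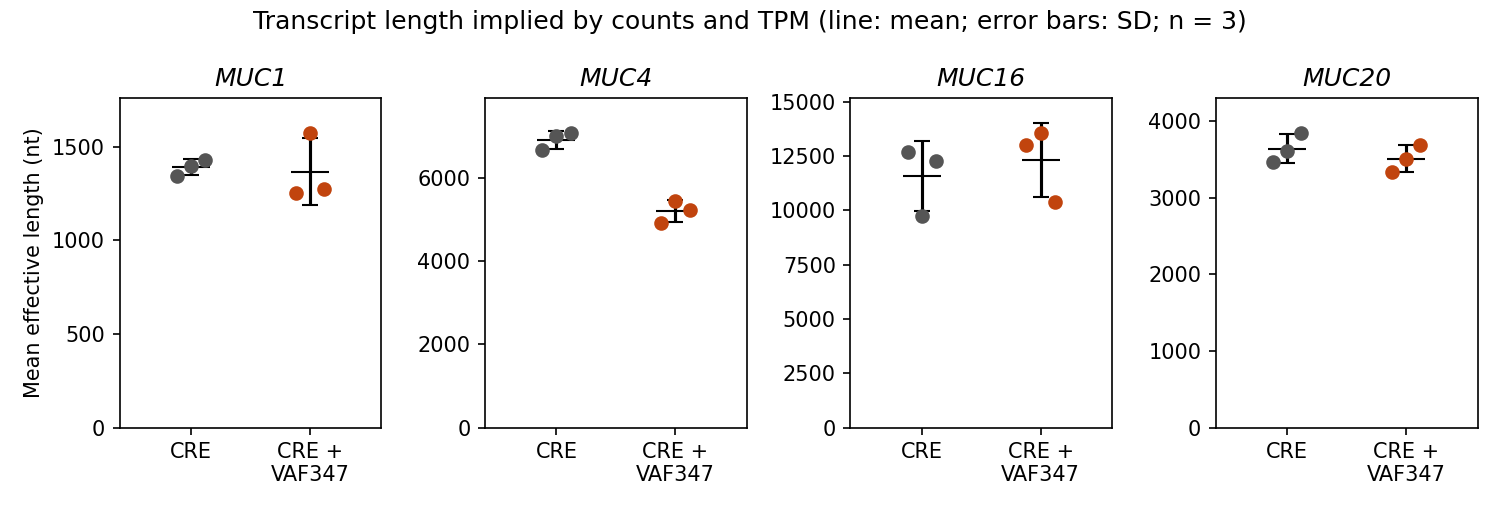
Mean effective transcript length in nucleotides (y axis, from 0) of the 4 expressed mucins in the CRE and CRE + VAF347 libraries, with points for libraries, a line for the mean and error bars for the SD (n = 3). *MUC4* is the gene whose groups do not overlap, at 6672 to 7071 with CRE and 4924 to 5439 with VAF347.

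*MUC16* had the largest fold change of the 4 tested members. Its product, the source of the CA125 antigen, is a very large membrane mucin of the airway surface. The gene lies on the minus strand of chromosome 19 from 8848844 to 9010390. It had 302, 412 and 460 counts with CRE and 188, 196 and 183 with VAF347, or 31.3, 40.4 and 43.0 CPM against 21.1, 20.6 and 18.3 CPM. Every VAF347 library was below every CRE library, and the VAF347 libraries lay close together. *MUC16* fell from 38.2 ± 6.2 to 19.995 ± 1.53 CPM (SD, n = 3). The log2 fold change was -0.94 ± 0.12 (standard error) with an edgeR adjusted p of 0.00125, and the gene ranked 203 of 15373 by absolute log2 fold change. In TPM it had 4.05, 6.84 and 6.62 with CRE and 2.72, 2.56 and 3.00 with VAF347.

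*MUC1*, a transmembrane mucin whose cytoplasmic tail takes part in signaling with EGFR and beta-catenin, was the other gene called. It lies on the minus strand of chromosome 1 from 155185824 to 155192916. *MUC1* had 307, 373 and 464 counts with CRE and 214, 209 and 238 with VAF347, or 31.8, 36.6 and 43.4 CPM against 24.0, 21.97 and 23.7 CPM. The groups did not overlap, and the CRE libraries were spread more widely than the VAF347 libraries. *MUC1* fell from 37.2 ± 5.8 to 23.3 ± 1.1 CPM (SD, n = 3). The log2 fold change was -0.68 ± 0.11 (standard error) with an edgeR adjusted p of 0.00553. In TPM it had 38.9, 43.3 and 57.3 with CRE and 32.2, 23.5 and 31.8 with VAF347.

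*MUC20*, a membrane mucin that binds the hepatocyte growth factor receptor MET, is on the plus strand of chromosome 3, at 195720884 to 195741123, 5641 bp from *MUC4*. It had 681, 821 and 841 counts with CRE and 506, 553 and 500 with VAF347, or 70.5, 80.5 and 78.6 CPM against 56.9, 58.1 and 49.9 CPM. All VAF347 values were below all CRE values. The log2 fold change was -0.48 ± 0.08 (standard error) with an edgeR adjusted p of 0.00585, under the fold threshold, so it was not called. Within the same library, counts of *MUC4* exceeded those of its neighbor *MUC20* by 1.56 to 1.75 times with CRE and by 2.91 to 3.67 times with VAF347.

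The *MUC20* counts are less certain than those of the other 3. Salmon gave *MUC20* fractional counts such as 680.951, while those of *MUC1*, *MUC4* and *MUC16* were within 0.001 of whole numbers. A pseudogene of *MUC20*, *MUC20P1*, lies nearby and a lncRNA overlaps *MUC20* on the same strand. Adding *MUC20P1* gave sums within 0.001 of whole numbers in CRE replicates 2 and 3 and CRE + VAF347 replicate 1. In CRE replicate 2, for example, *MUC20* had 820.845 and *MUC20P1* 45.155 counts. Adding either feature did not give whole numbers in every library, so the full set of genes that shared *MUC20* fragments was not identified. The pseudogene *MUC20P1*, named after its values were seen, had 4.74 ± 1.11 CPM with CRE and 3.15 ± 0.58 with VAF347 (SD, n = 3; log2 fold change -0.60, adjusted p = 0.167 from edgeR). The overlapping lncRNA *MUC20-OT1*, also named after its values were seen, had 51.6 ± 3.9 and 52.1 ± 1.7 CPM (SD, n = 3; log2 fold change 0.01, adjusted p = 0.938 from edgeR). *MUC20* and *MUC20P1* summed gave a log2 ratio of group means of -0.48, and with *MUC20-OT1* added, -0.27.

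**Figure D2:**
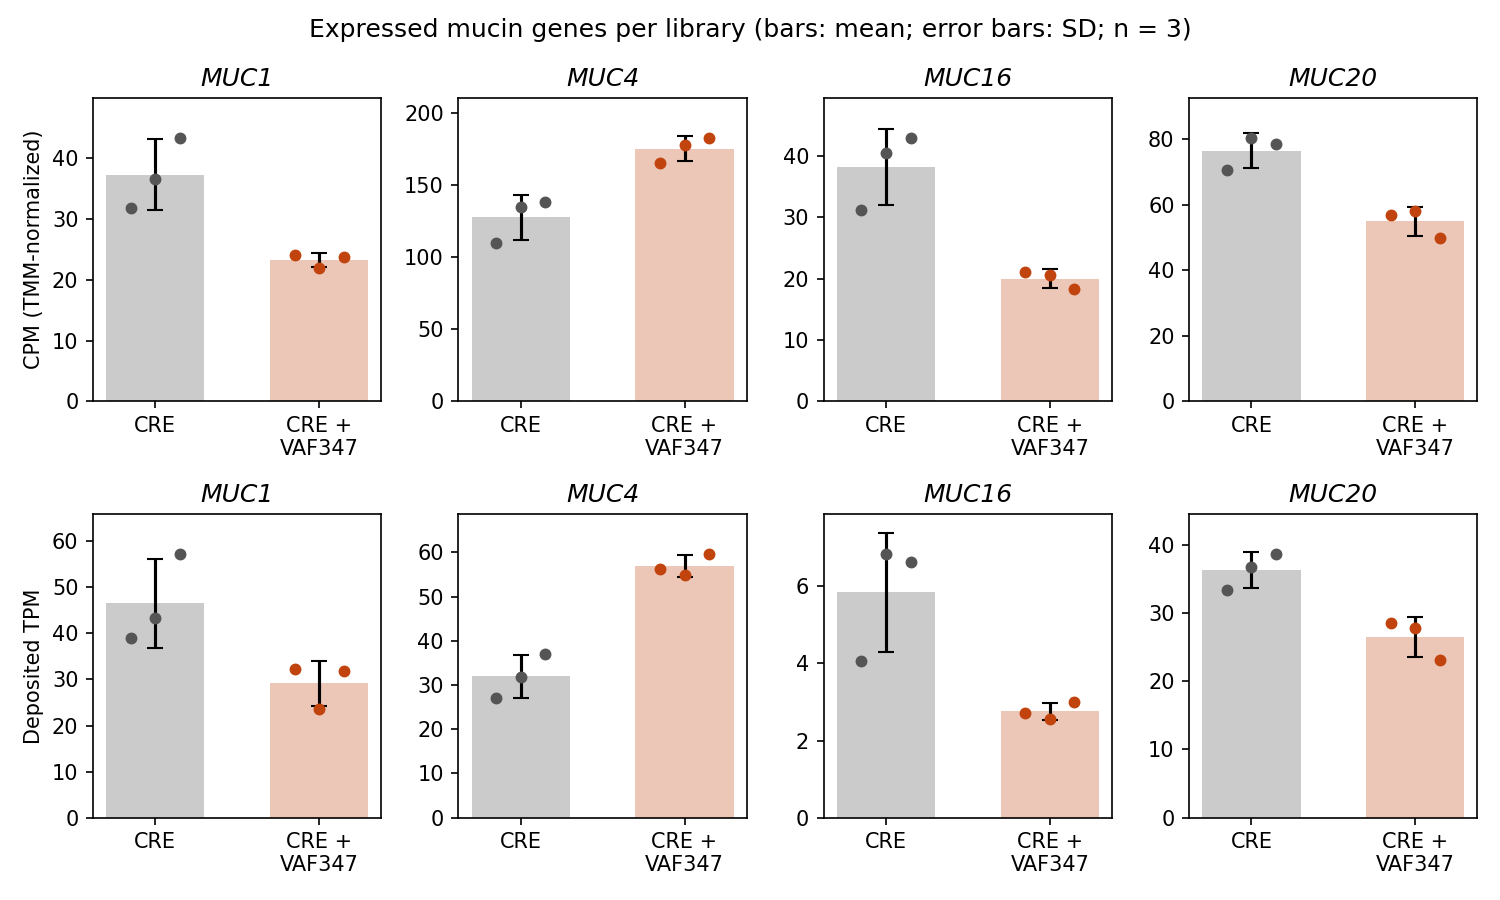
Levels of the 4 expressed mucins in each library, as TMM-normalized CPM (upper panels) and deposited TPM (lower panels), with points for libraries, bars for the mean and error bars for the SD (n = 3). *MUC4* is higher and the other 3 genes are lower in all CRE + VAF347 libraries, and the *MUC4* difference is larger in TPM than in CPM.

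All 4 tested members had an adjusted p under 0.05 at any fold, against 5.42% of genes tested, and non-overlapping CPM groups, against 27.3%. With the fold threshold 2 of the 4 were called, both lower, against 1.71% of genes called lower. Of the 4, 3 were below 0, against 47.9% of genes tested, and the median log2 fold change was -0.58. The genes were chosen with earlier results of these data known, so these shares describe the list and do not test it. In CRE + VAF347 against CRE, *MUC1* and *MUC16* were called in each of the 6 fits that left out 1 library. The log2 fold change ran from -0.78 to -0.56 for *MUC1* and from -1.06 to -0.85 for *MUC16*. Without CRE replicate 3, the library that stood apart, it was -0.56, 0.52, -0.85 and -0.46 for *MUC1*, *MUC4*, *MUC16* and *MUC20*, so that *MUC4* passed both thresholds (adjusted p = 0.00028 from edgeR). *MUC4* also passed without CRE replicate 2, at 0.50 with an adjusted p of 0.0275. Without CRE + VAF347 replicate 2 or 3 its adjusted p was 0.063 and 0.0668, over the threshold. *MUC20* passed both thresholds without CRE replicate 1 (-0.53) and without CRE + VAF347 replicate 1 (-0.51) or 2 (-0.53). On TPM, limma called neither *MUC1* nor *MUC16*, with adjusted p of 0.171 and 0.154 on log2(TPM + 1), and *MUC1* had an adjusted p of 0.0621 in edgeR with length offsets.

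**Figure D3:**
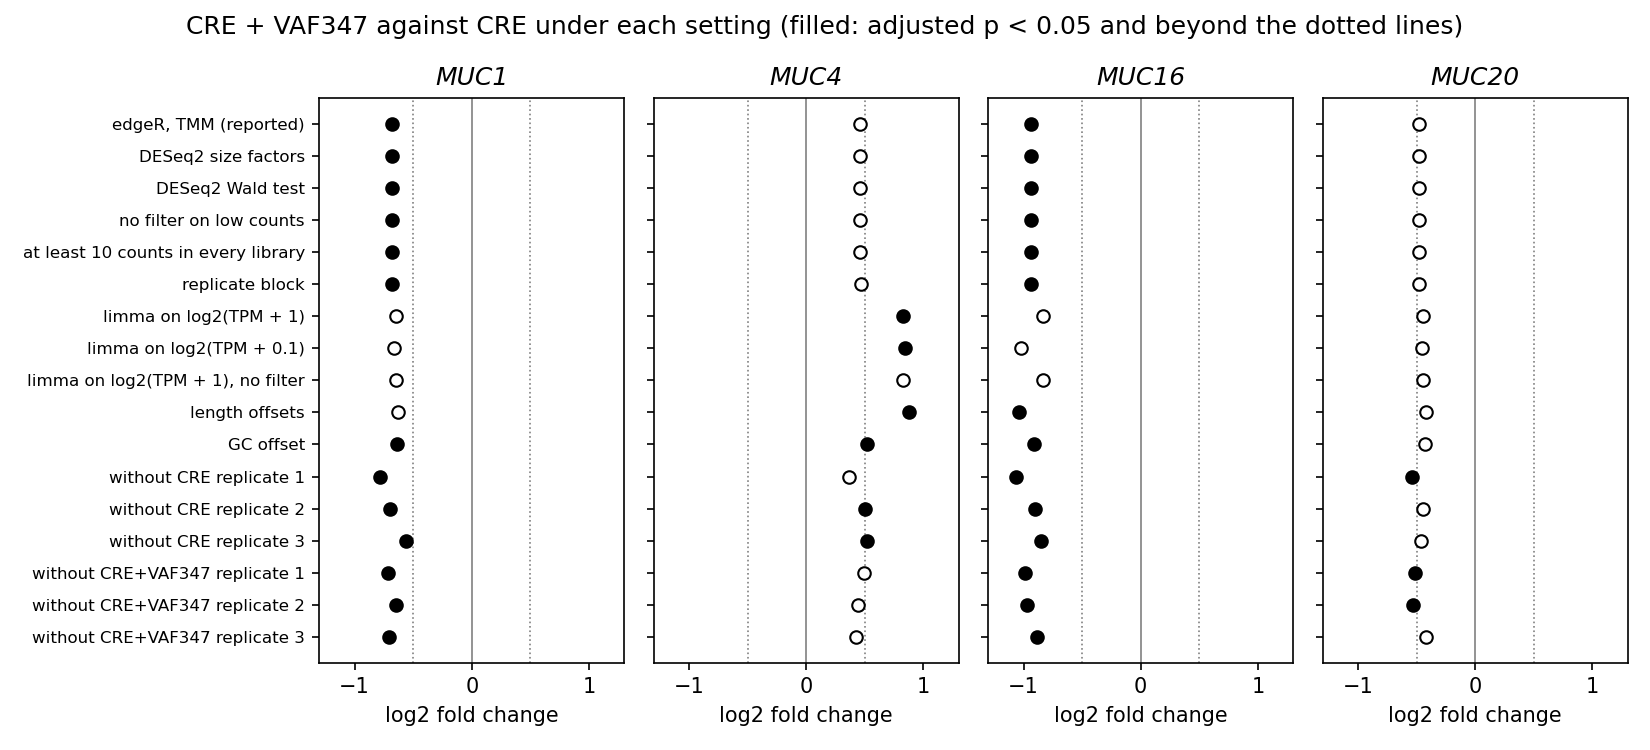
Log2 fold change of CRE + VAF347 against CRE (x axis) for the 4 expressed mucins under the reported fit and each alternative, including the fits that leave out 1 library. Filled points pass an adjusted p of 0.05 and the fold threshold drawn as dotted lines at 0.5 in either direction; the sign of each gene is the same in every row.

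The order of the mucins by level per length differed between the groups. In TPM with CRE, *MUC1* ranged from 38.9 to 57.3, *MUC20* from 33.4 to 38.7, *MUC4* from 27.1 to 36.9 and *MUC16* from 4.05 to 6.84. *MUC20* and *MUC4* overlapped, and *MUC1* lay just above *MUC20*. With VAF347, *MUC4* came first at 54.9 to 59.7, *MUC1* (23.5 to 32.2) and *MUC20* (23.1 to 28.6) overlapped, and *MUC16* was lowest at 2.56 to 3.00. *MUC4* made up 26.2%, 26.7% and 26.4% of the summed TPM of the 7 genes with CRE and 46.9%, 50.5% and 50.7% with VAF347. On counts its share was 45.1%, 46.0% and 45.5% with CRE and 61.8%, 63.8% and 66.6% with VAF347. The summed TPM itself was 120.8 ± 18.2 with CRE and 115.5 ± 5.9 with VAF347 (SD, n = 3), a difference smaller than the spread between CRE libraries. These shares are not independent of the single-gene differences above.

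**Figure D4:**
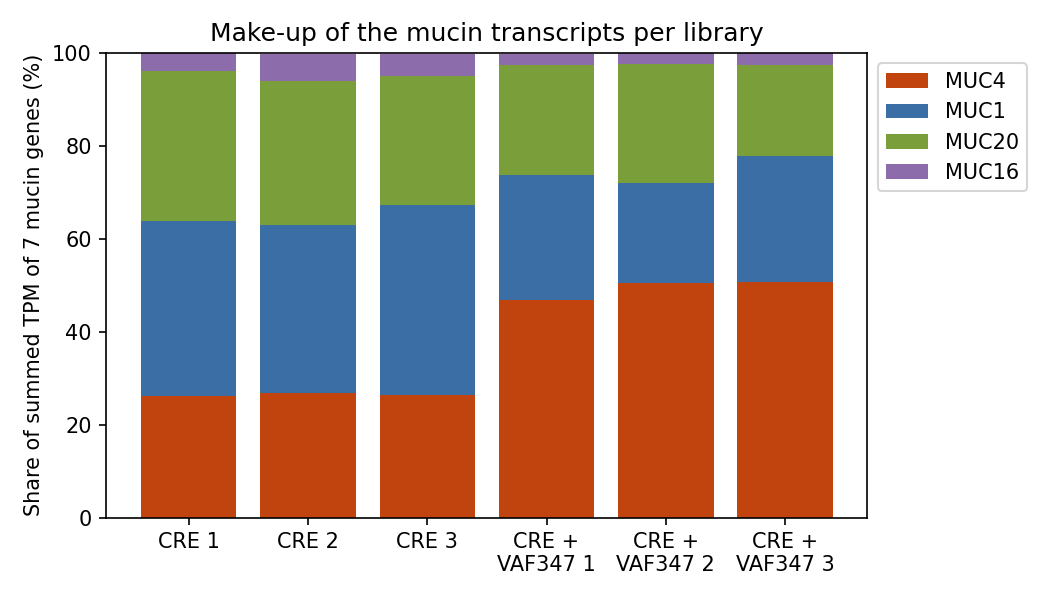
Share of the summed TPM of the 7 mucin genes (y axis, percent) taken by each expressed mucin in each of the 6 libraries. *MUC4* takes 26.2% to 26.7% in the CRE libraries and 46.9% to 50.7% in the CRE + VAF347 libraries; *MUC15* and *MUC5B* together take under 0.5% and are not drawn.

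Base composition moved with the fold changes in these libraries. When genes were split into 10 classes by transcript GC content, from the lowest to the highest class, the median log2 fold change went from 0.11 to -0.09. The 4 expressed mucins have a transcript GC content of 53.2% to 57.7%, and genes in the same GC classes had medians of -0.03 and -0.04. With an offset for GC content in each library, the log2 fold changes were -0.64 for *MUC1*, 0.52 for *MUC4*, -0.91 for *MUC16* and -0.43 for *MUC20*, and *MUC4* passed both thresholds.

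The genes with the pattern most like that of *MUC4* were found by Pearson's r of log2 CPM over the 6 libraries, among 11162 other genes with a mean log2 CPM over 3. They were *SUV39H2*, a histone H3 methyltransferase (r = 0.996), *EFR3A*, a plasma membrane scaffold protein (0.993), *C9orf85* (0.987), the lysosomal chitobiase *CTBS* (0.987) and *FCHO2*, a factor of clathrin-mediated endocytosis (0.987). These values are a description over 6 points that share the same 2 groups.

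Of 16 other mucin genes, 13 did not pass the filter on low counts, and 6 of these, *MUC7*, *MUC17*, *MUC19*, *MUC21*, *MUCL1* and *EMCN*, had 0 counts in every library. The 3 tested were *CD164*, *MUC3A* and *MCAM*, and 0 of them were called. At any fold, 0 had an adjusted p under 0.05 from edgeR, against 5.42% of all genes, and 0 from DESeq2. Their unadjusted p from edgeR was 0.0883 for *CD164*, 0.00293 for *MUC3A* and 0.0176 for *MCAM*. *CD164*, a sialomucin of the cell surface and lysosomes, was the most abundant, at 370.7 ± 18.1 CPM with CRE and 401.0 ± 10.9 with VAF347 (SD, n = 3; log2 fold change 0.11, adjusted p = 0.321). *MUC3A*, a membrane mucin best known from the intestine, had 222, 205 and 288 counts with CRE and 163, 166 and 147 with VAF347, with a log2 fold change of -0.48 and an adjusted p of 0.0528. Without CRE replicate 2, edgeR called *MUC3A*, at -0.57 with an adjusted p of 0.0391, and without CRE replicate 3 it was -0.36 and not called. *MCAM*, an adhesion molecule also named MUC18, had a log2 fold change of -0.44 (adjusted p = 0.141).

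Mucin O-glycosylation starts when GALNT enzymes add N-acetylgalactosamine to serine or threonine, and other transferases then extend the sugar. Of 27 such genes, 23 were tested and 1 was called, against 2.21% of all genes, with 9 of the 23 above 0 and 14 below (47.9% of all genes tested were below) and a median log2 fold change of -0.07. The called gene was *GALNT5*, a transferase of the initiating step. It had 719, 627 and 752 counts with CRE and 1119, 1142 and 1213 with VAF347, and rose from 68.7 ± 6.6 to 122.3 ± 3.0 CPM (SD, n = 3; log2 fold change 0.83, standard error 0.07, adjusted p = 0.000135 from edgeR). Every VAF347 library was above every CRE library, and without CRE replicate 3 the log2 fold change was 0.85. The more abundant *GALNT2* and *GALNT7*, also initiating enzymes, had log2 fold changes of -0.12 and -0.13 with adjusted p of 0.286 and 0.293.

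Receptors and ligands that bind membrane mucins and proteases that can shed their outer parts formed a list of 13 genes, of which 12 were tested. Of these 1 was called, *MSLN*, which was lower (1.71% of all genes tested were called lower), and 10 of the 12 were below 0, against 47.9% of all genes, with a median log2 fold change of -0.21. *MSLN* encodes mesothelin, the binding partner of MUC16. It had 316, 337 and 369 counts with CRE and 183, 211 and 213 with VAF347, and fell from 33.4 ± 0.9 to 21.3 ± 0.8 CPM (SD, n = 3; log2 fold change -0.65, adjusted p = 0.000882 from edgeR). Its log2 fold change was -0.62 without CRE replicate 3, and with length offsets it was -0.68 with an adjusted p of 0.0594. Without CRE replicate 2 or without CRE + VAF347 replicate 1, 2 of the 12 were called. At any fold 5 of the 12 had an adjusted p under 0.05, against 5.42% of all genes. The most abundant were *MMP14*, a membrane metalloprotease (log2 fold change -0.42, adjusted p = 0.00208), *PTPRF*, a receptor phosphatase (-0.33, adjusted p = 0.0222), and *ADAM9*, a membrane protease (-0.23, adjusted p = 0.0359), all under the fold threshold.

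Of 32 genes of airway secretory cells, 10 were tested, and 10 others had 0 counts in every library, among them the club cell gene *SCGB1A1* and the goblet cell gene *CLCA1*. Of those tested, 2 fell, 1 rose and 7 were not called, against 1.71% of all genes called lower and 0.501% called higher, with a median log2 fold change of -0.20. *LCN2*, the iron-sequestering antimicrobial protein lipocalin-2, had 1408, 1785 and 1388 counts with CRE and 727, 771 and 642 with VAF347 (log2 fold change -0.99 ± 0.12, standard error, edgeR adjusted p = 0.000695; -1.09 without CRE replicate 3). *ANO1*, a calcium-activated chloride channel, fell from 70.1 ± 8.8 to 49.0 ± 3.1 CPM (SD, n = 3; log2 fold change -0.52, adjusted p = 0.00825). *ANO1* was not called without CRE replicate 3 (-0.42) or without CRE + VAF347 replicate 3 (-0.48), nor with length offsets (-0.34, adjusted p = 0.377), the GC offset (-0.47) or limma on TPM (-0.36 on log2(TPM + 1), adjusted p = 0.565). *HES1*, a transcription factor of the Notch pathway, rose from 18.2 ± 1.3 to 26.1 ± 1.9 CPM (SD, n = 3; log2 fold change 0.52, adjusted p = 0.0101). The *HES1* fold change was 0.46 without CRE replicate 1, 0.48 without CRE + VAF347 replicate 1 and 0.48 without CRE + VAF347 replicate 2. *HES1* was not called in these fits, while without CRE replicate 3 it was 0.55 and called. Limma on log2(TPM + 1) did not call *HES1* (0.51, adjusted p = 0.146). With length offsets edgeR called it (0.57, adjusted p = 0.0388). The most abundant of the list were *NOTCH2*, the receptor upstream of HES1 (-0.04), *WFDC2*, a secreted protease inhibitor (-0.09), and *CFTR*, the chloride channel mutated in cystic fibrosis (-0.23), none of them called.

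**Figure D5:**
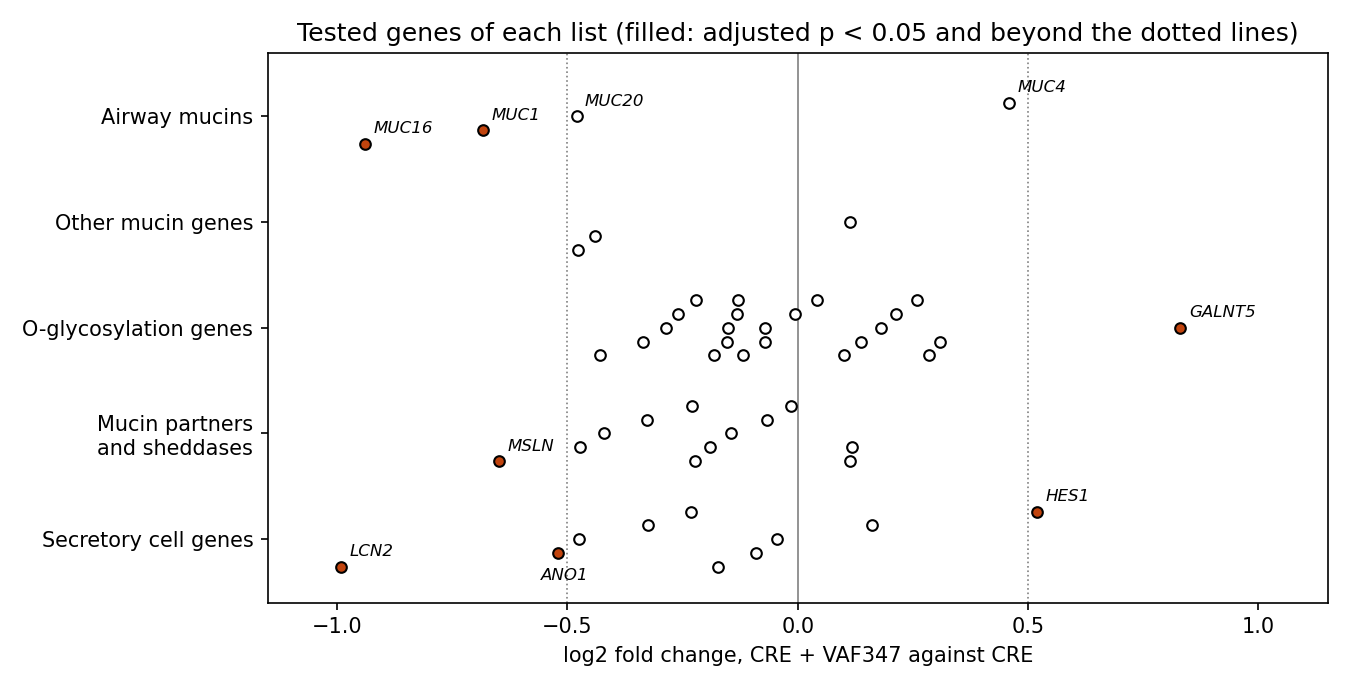
Log2 fold change of CRE + VAF347 against CRE (x axis) for the tested genes of 5 lists, 1 point per gene, with vertical spread only to separate points. Filled points pass an adjusted p of 0.05 and the dotted fold threshold of 0.5 in either direction: *MUC16*, *MUC1*, *MSLN*, *ANO1* and *LCN2* lie to the left and *GALNT5* and *HES1* to the right.

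The labelled cell type was compared with marker genes. All 6 epithelial markers (*EPCAM*, *CDH1*, *KRT7*, *KRT8*, *KRT18* and *KRT19*) were tested, and their summed level was 4695 to 4968 CPM with CRE and 4477 to 4612 with VAF347. The 5 club cell markers were at 0 in every library, and the 7 goblet cell markers summed to 0.932 to 1.47 CPM with CRE and 1.37 to 1.497 with VAF347, with *CLCA1* and *TFF3* at 0. Among 6 basal cell markers *KRT14* and *TP63* did not exceed 3 counts in a library, and the list summed to 57.5 to 61.9 CPM with CRE and 47.0 to 51.3 with VAF347. Gland markers summed to at most 0.526 CPM. Marker sums of other cell types were also lower with VAF347. Ciliated cells (6 genes) had 25.5 to 26.2 against 16.5 to 19.1 CPM, and endothelial cells (4 genes) 27.3 to 29.7 against 17.9 to 21.8. Leukocytes (4 genes) had 27.6 to 31.7 against 18.9 to 25.02. Mean CPM fell most in single genes of each list: *CAPS* (15.9 to 9.97), *CDH5* (17.6 to 9.86) and *CD68* (25.7 to 19.1). Not all genes of these 3 lists had a lower mean: *KDR* had 7.35 and 8.15 CPM, *RSPH1* 0.559 and 0.672, and *CD3E* 0.033 and 0.103. *RSPH1* and *CD3E* had at most 8 and 2 counts in a library and were not tested. *KDR* had an adjusted p of 0.683 from edgeR, so none of them was shown to rise. Of these 3 lists, *CAPS*, a calcium-binding protein (-0.68, adjusted p = 0.00811), *VWF*, the von Willebrand factor (-1.45, adjusted p = 0.0107), and *CDH5*, the endothelial cadherin (-0.84, adjusted p = 0.00119), were called lower by edgeR, named here after their log2 fold changes were seen. They were 1 of 4 ciliated, 2 of 3 endothelial and 0 of 2 leukocyte genes tested, against 1.71% of all genes. *VWF*, with 10 to 39 counts, was not called by edgeR without CRE + VAF347 replicate 2 or 3 (adjusted p = 0.0633 and 0.0595). *CAPS* was not called without CRE + VAF347 replicate 3 (0.0511) or with length offsets (0.0814). Limma on TPM called neither *CAPS* nor *CDH5*. Of the defining genes *PECAM1*, *PTPRC* and *CD3E* did not exceed 3 counts in a library. Fibroblast markers (5 genes) summed to 36.8 to 46.1 and 36.2 to 39.7 CPM, with *DCN*, *LUM* and *PDGFRA* at 0. The part of these sums in the lower *MUC1*, *MUC16* and *MUC20* was not tested.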

How the data were processed

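RNA-seq of 6 HBE cell libraries was analysed, 3 with CRE and 3 with CRE + VAF347, and samples were matched to table columns by their labels, with 0 columns left unmatched. The authors estimated expected counts per gene symbol with Salmon on hg38 and deposited them without scaling to depth. The deposited TPM values sum to 1000000 per library. The Salmon version, annotation and strand setting are not given in the sources used here. The third deposited table holds the authors' own log2 fold changes and p-values and was not used. All 61228 gene names occur in GENCODE v44, so positions are from that annotation on GRCh38.

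Expected counts were rounded to whole numbers (14.5% were not whole) and fitted with edgeR 4.0.16 in R 4.3.3: a filterByExpr filter, TMM scaling and the quasi-likelihood test, with p-values adjusted by Benjamini-Hochberg over 15373 genes. The standard error is the log2 fold change divided by the square root of F. Alternatives used limma 3.58.1 on log2(TPM + 1) or log2(TPM + 0.1) with a mean TPM of at least 1, DESeq2 1.42.0, other filters, thresholds, offsets and a replicate block. An exact permutation test of 3 against 3 libraries cannot go below p = 0.1, which is why the model across genes was used. Lengths were scaled by 349 genes with 1 transcript of at least 3000 nucleotides. The scripts were tested on simulated data. Named genes are the 7 mucins, every called gene and the 3 most abundant of each of 4 other lists (mucin, O-glycosylation, partner and secretory genes, not markers), the 2 AhR targets and the 5 genes correlated best with the most abundant mucin. The genes and lists were chosen with earlier results of these data known. Beside the 4 leukocyte markers reported, another is not reported here.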

Additional observations from a re-analysis of the deposited data

How the results depend on the processing

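The sign of *MUC1*, *MUC4*, *MUC16* and *MUC20* was the same in each of 16 alternative fits per gene. The causes of the changed calls below were not tested, apart from the thresholds and filters that change a count by construction. Limma on log2(TPM + 1), on log2(TPM + 0.1) and on log2(TPM + 1) without a filter gave *MUC1* -0.65, -0.67 and -0.65 (adjusted p from 0.171 to 0.407) and *MUC16* -0.84, -1.02 and -0.84 (adjusted p from 0.145 to 0.392), all without a call. With length offsets *MUC1* was -0.63 and not called. *MUC4* was called at 0.83 and 0.84 in the first 2 of these limma fits, at 0.88 with length offsets and at 0.52 with the GC offset, which was added after seeing the data. When each library was left out, log2 fold changes ran from 0.36 to 0.52 for *MUC4* and from -0.53 to -0.42 for *MUC20*.

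The same 3 limma fits called 1, 1 and 0 of the airway mucins, 0, 0 and 0 of the mucin partners and sheddases, 1, 1 and 0 of the secretory cell genes, and 84, 84 and 32 of all genes. The third also called 0 O-glycosylation genes. Length offsets gave 0 partners and sheddases and 218 of all genes. Without a fold threshold 4 airway mucins, 5 partners and sheddases and 833 of all genes passed, and at an unadjusted p of 0.05 with the fold threshold 749 genes did. Without a filter on low counts 598 genes were called, 187 of them higher, and DESeq2's Wald test called 265. Leaving out each library gave 2 to 3 airway mucins, 0 to 1 other mucin genes, 1 to 2 partners and sheddases, and 201 to 380 of all genes, with 201 without CRE + VAF347 replicate 3. Of genes not called, *CD164* changed sign on TPM (-0.0010 in the 3 limma fits), *NOTCH2* ran from -0.0986 to 0.035 and *WFDC2* from -0.2635 to 0.0905 when each library was left out, positive without CRE replicate 3 and without CRE replicate 2.

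Same-numbered libraries of the 2 groups had correlations of their deviations of 0.10, 0.128 and 0.050 over genes. Those of libraries with unlike numbers ran from -0.082 to -0.016, so each library correlated best with its own number. The labels do not state pairs and the reported fit took none, so whether the libraries are paired was not settled. With the replicate block, 319 of all genes were called, and the log2 fold changes were -0.68, 0.46, -0.93 and -0.48 for *MUC1*, *MUC4*, *MUC16* and *MUC20*, with no call changed among these 4. Depth limits *MUC5AC*, *MUC5B* and *MUC15*, for which no fold change was fitted.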
